A study of Homo sapiens with 9 samples.

Results

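Interferon-stimulated genes (ISGs) were followed in A549, a cell line from a human lung adenocarcinoma, after an intergenic ALK fusion was made in its cells and after FOS was edited on top of the fusion. The members were 48 ISGs chosen by symbol from the 26364 gene names of the count table. The rule itself uses no expression value, but the list was drawn up with earlier results of these data known. RNA-seq was available for 9 libraries in 4 groups. A549 comprised 2 libraries labelled as wild type. LA comprised 2 libraries of A549 cells cut with guides against LOC388942 and ALK to join these loci into the LOC388942-ALK (LA) fusion. LA sgScr comprised 3 libraries of LA cells that also received a scramble guide, and LA sgFOS comprised 2 libraries of LA cells that also received guides against FOS, so both of these groups are labelled as carrying the fusion. Per the methods, the fusion was made in A549 cells that express Cas9 and single-cell strains were grown by limiting dilution, so a group may represent 1 clone. The labels say neither which FOS guide a library carried nor whether the guide-treated cells were grown and sequenced together with the LA cells without a second guide. They also do not say that replicates came from separate cultures, so each p-value measures only the spread between these samples, which may be technical.

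Type I and type III interferons signal through JAK1 and TYK2 to a transcription factor complex that holds STAT2 and IRF9 and binds interferon-stimulated response elements (ISREs) in promoters. Interferon gamma signals through JAK1 and JAK2, and its targets carry gamma-activated sites (GAS). The induced genes encode RNA sensors, inhibitors of viral translation and replication, ubiquitin-like modifiers and GTPases, and many of them keep a basal level in epithelial cells without added interferon. FOS is a subunit of AP-1, a transcription factor that binds a different motif.

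RefSeq promoter windows around the start of transcription (GRCh38.p14) matched 38 of the 48 members. The ISRE core, spelled GAAA, any 2 bases and GAAA and searched on both strands as every motif here, was in 25 of them (65.8%), against 3.57% of all 35116 promoters. The GAS motif TTCNNNGAA was in 10 (26.3%, against 7.66%). The AP-1 motif TGANTCA was in 4 (10.5%, against 7.71%), namely IFIT5, ISG20, SAMD9L and GBP3. The 160 bases before the start of 7 members on which the comparisons turn are printed here on the gene's strand, with ISRE cores and AP-1 motifs in capitals. A core on the opposite strand starts and ends with TTTC. LGALS3BP (chr17:78979924-78980083, minus strand), GBP1 (chr1:89065209-89065368, minus) and SAMD9 (chr7:93117980-93118139, minus) had their lowest group mean with the scramble guide. IFIT3 (chr10:89327837-89327996, plus), ISG15 (chr1:1013337-1013496, plus) and OAS3 (chr12:112938314-112938473, plus) each hold a pair of cores but had different orders of the groups. ISG20 (chr15:88638856-88639015, plus) was lower in sgFOS cells and holds both an ISRE core and an AP-1 motif.
LGALS3BP: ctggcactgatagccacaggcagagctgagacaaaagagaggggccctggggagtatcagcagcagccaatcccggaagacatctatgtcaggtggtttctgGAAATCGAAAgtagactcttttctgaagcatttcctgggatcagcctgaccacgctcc
GBP1: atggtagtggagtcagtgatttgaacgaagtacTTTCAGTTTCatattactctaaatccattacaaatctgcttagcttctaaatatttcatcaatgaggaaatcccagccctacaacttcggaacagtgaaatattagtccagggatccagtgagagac
SAMD9: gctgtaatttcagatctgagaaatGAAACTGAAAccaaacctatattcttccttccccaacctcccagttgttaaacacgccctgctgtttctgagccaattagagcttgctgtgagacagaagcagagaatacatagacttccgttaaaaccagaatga
IFIT3: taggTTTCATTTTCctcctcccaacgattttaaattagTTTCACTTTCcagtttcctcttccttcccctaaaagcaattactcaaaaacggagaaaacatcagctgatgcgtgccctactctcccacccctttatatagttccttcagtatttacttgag
ISG15: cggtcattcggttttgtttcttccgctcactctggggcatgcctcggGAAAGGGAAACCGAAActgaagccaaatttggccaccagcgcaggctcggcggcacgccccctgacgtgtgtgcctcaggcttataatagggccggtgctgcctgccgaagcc
OAS3: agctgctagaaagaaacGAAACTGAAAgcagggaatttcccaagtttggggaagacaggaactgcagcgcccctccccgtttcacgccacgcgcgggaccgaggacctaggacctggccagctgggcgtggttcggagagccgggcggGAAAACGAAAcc
ISG20: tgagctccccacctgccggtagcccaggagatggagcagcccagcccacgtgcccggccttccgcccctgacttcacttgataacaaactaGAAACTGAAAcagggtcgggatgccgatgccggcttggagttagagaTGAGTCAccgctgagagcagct
These matches describe the letters of the windows only, and the files hold no measurement of binding.

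Total counts per library ranged from 14507228 to 20456341. Levels are CPM, counts scaled to a common library size, with TMM factors over the 9 libraries. FOS, the edited gene, was at 10.5 and 9.14 CPM in A549, 336 and 91.6 in LA, 202, 198 and 205 in sgScr, and 68.6 and 74.3 in sgFOS. ALK, the fused gene, had 0 counts in both A549 libraries, 2 and 15 in LA, 4, 1 and 3 in sgScr, and 2 and 0 in sgFOS, so at this depth its reads do not separate most libraries labelled with the fusion from A549. Replicates agreed far less well in A549 and LA than in the guide-treated groups: a chi-square of the counts divided by its degrees of freedom was 134 for the A549 pair and 62.3 for the LA pair, but 1.79 to 2.72 within sgScr and 1.76 within sgFOS. All 9 epithelial and A549 markers were detected. The sum of the 4 fibroblast markers, made up mainly of COL1A1, ranged over 7.25 to 17.7 CPM in A549, 15.3 to 17.1 in LA, 6.79 to 7.92 in sgScr and 9.41 to 10.6 in sgFOS, and the fibroblast marker DCN had 0 counts in all libraries but LA replicate 2, where it had 1. The leukocyte markers PTPRC and CD3E had 0 counts in every library, while the sum of the 6 leukocyte markers, made up mainly of CD68 and CD14, ranged over 53.9 to 74.7 CPM in A549, 39.0 to 39.1 in LA, 38.0 to 39.5 in sgScr and 53.7 to 56.6 in sgFOS. In these bulk samples, fewer cells that express a gene and less RNA per cell cannot be told apart.

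Per kb of transcript, ISG levels spanned a wide range. LGALS3BP, a secreted glycoprotein that binds galectins, had the highest mean over the 9 libraries at 95.7 CPM per kb, followed by IFITM2 at 39.8, PLSCR1 at 26.2 and OAS1 at 21.2. On this scale 8 members were at 10 or more, 23 between 1 and 10, and 17 under 1. DHX58, BST2, RSAD2, IFI44L and XAF1 did not pass the filter on low counts in any comparison, and their highest counts were 10, 12, 13, 15 and 19.

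Of the 36 members with a mean of at least 1 CPM, 25 had their highest group mean in LA, 10 in A549, 1 in sgFOS and 0 in sgScr. Among all 13361 genes at that level, 28.6% were highest in LA and 37.4% in A549. The lowest group mean was in sgScr for 21 of the 36 members, against 15% of all genes. The LA libraries were themselves unequal: replicate 2 was above replicate 1 for 30 of the 36 members, with a median difference of 0.35 on the log2 scale, while 49.2% of all genes were higher in replicate 2.

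**Figure D1:**
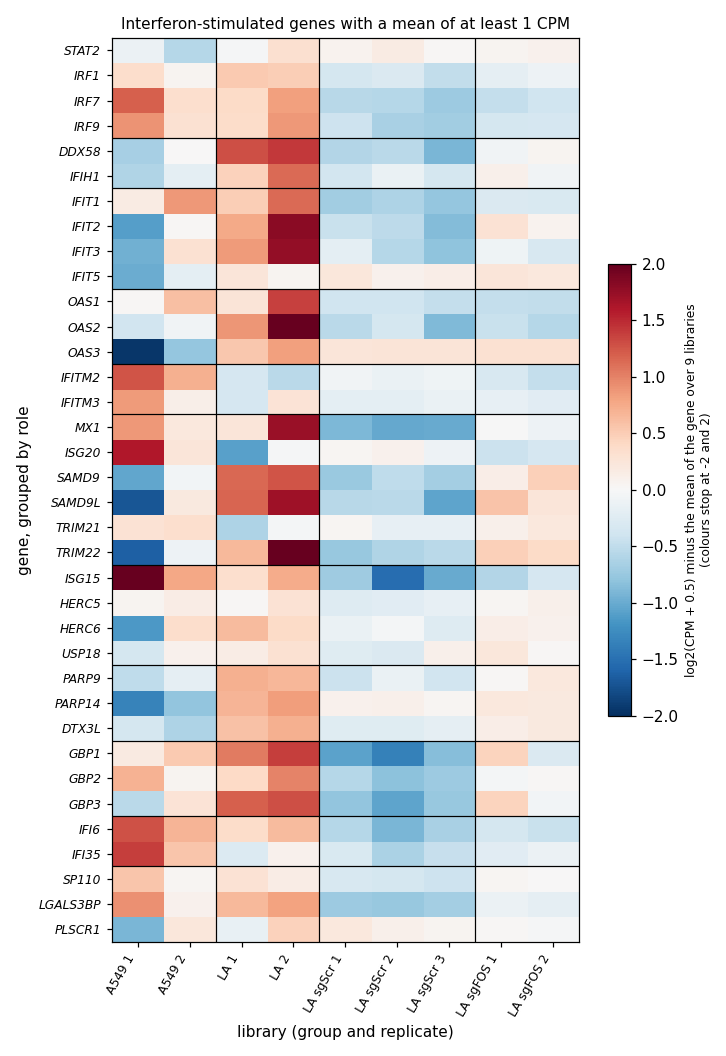
Heatmap of 36 interferon-stimulated genes (rows, grouped by role) in the 9 libraries (columns); the colour is log2(CPM + 0.5) minus the gene's mean over the libraries, from blue (lower) to red (higher). LA columns are mostly red and sgScr columns mostly blue: 25 members had their highest group mean in LA and 21 their lowest in sgScr, and the A549 columns differ from each other.

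Among the transcription factors, STAT2, a subunit of the interferon-activated complex, was at 23.9 and 17.5 CPM in A549, 25.8 and 32.8 in LA, 27.5, 29.3 and 26.6 in sgScr, and 27.2 and 27.6 in sgFOS. Its A549 libraries were the lowest, and the other groups overlapped or lay close together. IRF9, the DNA-binding subunit of the same complex, was at 28.4 and 18.6 CPM in A549, 19.5 and 27.5 in LA, 11.1, 9.38 and 9.05 in sgScr, and 11.6 and 11.7 in sgFOS. IRF7, which amplifies interferon production, was at 13.1 and 6.96 CPM in A549, 7.27 and 9.99 in LA, 3.55, 3.49 and 3.07 in sgScr, and 3.74 and 4.0 in sgFOS. For IRF9 and IRF7 all 5 guide-treated libraries lay below all 4 others, and A549 overlapped LA. IRF1, a factor induced early by interferon gamma, was at 35.1 and 28.4 CPM in A549, 39.7 and 38.8 in LA, 21.4, 22.3 and 19.3 in sgScr, and 24.2 and 25.6 in sgFOS. Its groups did not overlap, with LA highest and sgScr lowest.

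Both cytosolic RNA sensors that could be tested were highest in LA. DDX58, which encodes RIG-I, was at 5.72 and 9.49 CPM in A549, 23.6 and 25.9 in LA, 6.10, 6.34 and 4.76 in sgScr, and 8.92 and 9.74 in sgFOS. IFIH1, which encodes MDA5, was at 3.83 and 5.25 CPM in A549, 8.56 and 13.8 in LA, 4.56, 5.50 and 4.64 in sgScr, and 6.54 and 5.74 in sgFOS. For both genes the LA libraries were above every other library, sgFOS was above sgScr, and A549 overlapped sgScr.

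The IFIT genes encode proteins that bind foreign RNA and lie side by side on chromosome 10 (chr10:91043451-91181362, GRCh37). IFIT2 was at 0.754 and 2.24 CPM in A549, 4.07 and 8.99 in LA, 1.49, 1.38 and 0.986 in sgScr, and 2.79 and 2.34 in sgFOS. IFIT3, which holds a pair of ISRE cores in the window shown above, was at 2.14 and 5.84 CPM in A549, 8.75 and 16.7 in LA, 3.99, 2.95 and 2.44 in sgScr, and 4.29 and 3.60 in sgFOS. LA was highest for both, with a wide gap between its own libraries. IFIT1 was at 6.47 and 10.8 CPM in A549, 8.19 and 13.1 in LA, 3.31, 3.54 and 3.13 in sgScr, and 4.56 and 4.54 in sgFOS. A549 and LA overlapped for IFIT1, and sgScr was lowest. IFIT5 was at 12.8 and 22.6 CPM in A549 and between 26.8 and 30.7 in the 7 libraries labelled with the fusion, where sgScr and LA overlapped.

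The OAS genes encode 2',5'-oligoadenylate synthetases, which activate RNase L, and OAS1, OAS3 and OAS2 are adjacent (chr12:113343661-113449528, GRCh37). OAS3 was at 25.9 and 58.6 CPM in A549, 146 and 179 in LA, 119, 121 and 120 in sgScr, and 125 in each sgFOS library. All 7 libraries labelled with the fusion were above both A549 libraries. OAS1 was at 31.7 and 47.7 CPM in A549, 37.5 and 81.4 in LA, 23.5, 23.6 and 22.2 in sgScr, and 22.2 and 22.1 in sgFOS. OAS2 was at 0.377 and 0.590 CPM in A549, 1.60 and 5.30 in LA, 0.288, 0.393 and 0.116 in sgScr, and 0.340 and 0.267 in sgFOS. The adjacent genes thus differed: OAS1 and OAS2 were lower in all 5 guide-treated libraries than in either LA library, with both sgFOS libraries within or below the sgScr range, while OAS3 was at 119 CPM or more in them. OASL, a synthetase relative without the enzyme activity, had counts of 11 and 10 in A549, 23 and 35 in LA, 3, 4 and 5 in sgScr, and 11 and 24 in sgFOS.

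Of the membrane restriction factors, IFITM2 was highest in A549. IFITM2, which blocks fusion of virus with endosomes, was at 88.0 and 60.1 CPM in A549, 28.9 and 25.0 in LA, 34.7, 33.3 and 34.6 in sgScr, and 29.3 and 26.2 in sgFOS. Its A549 libraries were above all 7 labelled with the fusion. IFITM3 was at 19.0 and 11.2 CPM in A549, 8.01 and 12.5 in LA, 8.83, 8.89 and 9.34 in sgScr, and 9.05 and 8.68 in sgFOS, with LA overlapping A549. IFITM1, IFITM2 and IFITM3 are near-identical in part and neighbours on chromosome 11, so the split of reads among them is uncertain.

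Among the other antiviral effectors, SAMD9 and SAMD9L, adjacent genes on chromosome 7 whose proteins restrict poxviruses, had the same order of groups. SAMD9 was at 3.52 and 7.43 CPM in A549, 17.8 and 19.1 in LA, 4.42, 5.25 and 4.64 in sgScr, and 8.51 and 10.9 in sgFOS. SAMD9L was at 0.440 and 3.01 CPM in A549, 6.41 and 9.44 in LA, 1.58, 1.62 and 0.986 in sgScr, and 4.08 and 3.14 in sgFOS. LA was highest and sgFOS second for both, and sgScr lay within the A549 range. TRIM22, a ubiquitin ligase that limits viral transcription, was at 0.251 and 1.65 CPM in A549, 3.14 and 9.55 in LA, 0.864, 1.03 and 1.10 in sgScr, and 2.72 and 2.54 in sgFOS. MX1, a dynamin-like GTPase against RNA viruses, was at 6.22 and 3.77 CPM in A549, 3.88 and 11.8 in LA, 1.49, 1.33 and 1.33 in sgScr, and 3.20 and 2.94 in sgFOS. LA and A549 overlapped for MX1, and sgScr was lowest. ISG20, an RNA exonuclease, was at 35.4 and 13.5 CPM in A549, 5.11 and 11.1 in LA, 11.7, 12.1 and 10.6 in sgScr, and 8.31 and 8.94 in sgFOS, so A549 was highest and sgFOS was below sgScr. CMPK2, a mitochondrial nucleotide kinase, had counts of 8 and 14 in A549, 14 and 70 in LA, 2, 1 and 3 in sgScr, and 7 and 2 in sgFOS, and MX2 had 2 and 3, 11 and 20, 2 in each sgScr library, and 6 and 2. TRIM21, an antibody receptor and ubiquitin ligase, ranged over 9.43 to 18.8 CPM.

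ISG15, the ubiquitin-like modifier, was at 23.3 and 7.78 CPM in A549, 5.61 and 7.61 in LA, 2.45, 1.18 and 1.91 in sgScr, and 2.72 and 3.34 in sgFOS. A549 was highest and sgScr lowest, without overlap between any groups, although the A549 libraries were far apart. HERC5, its main ligase, USP18, the protease that removes it, and HERC6 ranged over 7.15 to 10.7, 7.73 to 12.4 and 3.71 to 14.0 CPM.

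PARP14, an ADP-ribosyltransferase, was at 20.2 and 29.7 CPM in A549, 83.2 and 92.8 in LA, 55.1, 55.5 and 53.1 in sgScr, and 60.3 and 59.3 in sgFOS. No groups overlapped, and all 7 libraries labelled with the fusion were above A549. DTX3L, a ubiquitin ligase that acts with PARP9, was at 23.1 and 19.0 CPM in A549, 44.7 and 48.4 in LA, 25.0, 24.9 and 25.9 in sgScr, and 32.6 and 33.8 in sgFOS. PARP9 was at 10.6 and 13.3 CPM in A549, 25.1 and 24.3 in LA, 11.1, 13.8 and 11.5 in sgScr, and 15.4 and 17.6 in sgFOS. For this pair LA was highest, sgFOS second and sgScr near A549. PARP9 and DTX3L start on opposite strands and overlap, and the strand setting of the counting is not given in the sources used here.

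The guanylate-binding proteins are GTPases that act on intracellular pathogens, and their genes form a cluster on chromosome 1 (chr1:89472362-89664625, GRCh37). GBP1 was at 1.95 and 2.59 CPM in A549, 3.94 and 5.13 in LA, 0.528, 0.344 and 0.696 in sgScr, and 2.45 and 1.27 in sgFOS. GBP3 was at 3.58 and 6.66 CPM in A549, 13.1 and 14.0 in LA, 2.93, 2.36 and 3.02 in sgScr, and 7.63 and 5.21 in sgFOS. GBP2 was at 4.90 and 2.95 CPM in A549, 3.88 and 6.07 in LA, 1.73, 1.38 and 1.51 in sgScr, and 2.72 and 2.87 in sgFOS. All of them were lowest in sgScr, and sgFOS lay above sgScr without overlap. GBP4, IFITM1 and IFI27 had 5 to 34, 2 to 18 and 3 to 27 counts over the 9 libraries, and IFI44 had 0 to 19.

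LGALS3BP was at 363 and 203 CPM in A549, 300 and 336 in LA, 116, 113 and 119 in sgScr, and 177 and 170 in sgFOS. The 5 guide-treated libraries were below the 4 others, and sgFOS was above sgScr. IFI6, a mitochondrial protein that inhibits apoptosis, was at 16.2 and 10.5 CPM in A549, 8.38 and 10.2 in LA, 4.13, 3.14 and 3.89 in sgScr, and 4.90 and 4.54 in sgFOS. IFI35 was at 46.7 and 26.2 CPM in A549, 14.5 and 18.8 in LA, 14.2, 11.2 and 12.6 in sgScr, and 15 and 16.2 in sgFOS, highest in A549. The ranges over the 9 libraries were 26.5 to 69.6 CPM for PLSCR1, a phospholipid scramblase, and 6.03 to 12.4 CPM for SP110, a nuclear body protein.

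**Figure D2:**
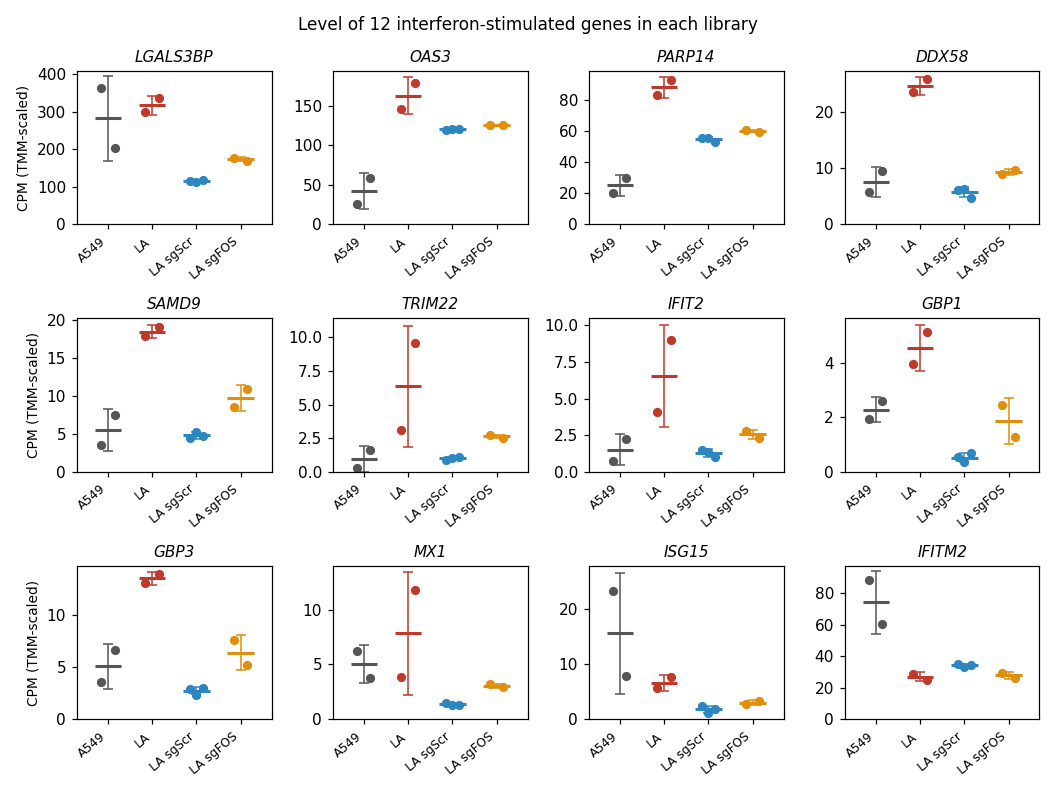
TMM-scaled CPM (y axis, from 0) of 12 interferon-stimulated genes in each library (points), with the group mean (line) and SD (bar) for A549 (n = 2), LA (n = 2), LA sgScr (n = 3) and LA sgFOS (n = 2). DDX58, SAMD9 and GBP3 are highest in LA and lie higher in sgFOS than in sgScr, while IFITM2 is highest in A549, at 88.0 and 60.1 CPM.

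LA against A549 asks what the fusion cells express differently from their parent line. Some ISGs were higher in LA, among them RNA sensing and RNA-binding genes. Of the 43 members tested, 9 were higher (background 9.57% of 14425 genes tested) and 2 were lower (background 9.94%) by edgeR's quasi-likelihood test at an adjusted p under 0.05, together 11 against a background of 19.5%. The 9 were DDX58, IFIT2, IFIT3, OAS2, OAS3, SAMD9, SAMD9L, TRIM22 and PARP14, and the 2 were IFITM2 and ISG20. By role, 1 of 2 sensors, 2 of 4 IFIT genes, 2 of 4 OAS genes, 3 of 8 other effectors and 1 of 3 PARP and DTX3L genes were higher, while 0 of 4 transcription factors, 0 of 4 ISG15 pathway genes, 0 of 4 guanylate-binding proteins and 0 of 4 IFI genes passed the test. The median log2 fold change of the members tested was 0.54, against 0.04 for all genes, and 30 of the 43 were positive. Groups did not overlap for 22 members that were above (background 32.7%) and 8 that were below (background 30.9%).

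OAS2 was higher in LA by 2.77 on the log2 scale (SE 0.80, edgeR adjusted p = 0.018), with 6 and 10 counts in A549 against 26 and 96. OAS2, MX2, CMPK2 and IFI44 passed the filter on low counts only in comparisons with LA, which favoured a higher value for them. TRIM22 was higher by 2.68 (SE 0.76, edgeR adjusted p = 0.016), SAMD9L by 2.15 (SE 0.68, 0.029), IFIT2 by 2.07 (SE 0.66, 0.030) and OAS3 by 1.90 (SE 0.44, 0.0048). The lower members were ISG20, with a log2 fold change of -1.63 (SE 0.51, edgeR adjusted p = 0.029), and IFITM2, with -1.50 (SE 0.41, 0.013). The log2 fold changes of the transcription factors were 0.46 for STAT2, 0.27 for IRF1, -0.26 for IRF7 and -0.04 for IRF9, with edgeR adjusted p of 0.47, 0.69, 0.76 and 0.96. ISG15 had a log2 fold change of -1.27 (SE 0.52, edgeR adjusted p = 0.087).

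These calls rest on few libraries. With LA replicate 2 left out, edgeR called 0 of 44 members, 8 of which had an unadjusted p under 0.05, and 185 higher and 68 lower of all 14783 genes tested. Leaving out LA replicate 1 gave 2 members higher and 0 lower (337 and 95 of all genes), leaving out A549 replicate 1 gave 2 and 1 (669 and 635), and leaving out A549 replicate 2 gave 12 and 4 (2383 and 2695), beside 1380 and 1434 genes with all 4 libraries. Over all genes, the log2 fold change rose with transcript length (Spearman's rho 0.57 across 14161 genes, which share the same 4 libraries and are not independent), and with a correction for length and GC content 4 members were higher and 0 lower, with 727 and 1003 of all genes. The members' median was 0.60 on the log2 scale after that correction, against -0.06 for all genes. Scaling by library size alone gave 11 higher and 0 lower (1601 and 682 of all genes), and moved the median of all genes to 0.33. An edgeR fit that shared its spread over all 9 libraries gave 15 higher and 5 lower, with 3552 and 3247 of all 14849 genes. A replicate block gave 8 higher and 0 lower, with 791 and 728 of all 14425 genes.

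LA sgScr against LA sets fusion cells with a scramble guide beside fusion cells without one. ISGs were broadly lower with the scramble guide. Of the 40 members tested, 30 were lower (background 12.3% of 14521 genes tested) and 0 were higher (background 10.6%) at an adjusted p under 0.05 in edgeR, and 33 had an unadjusted p under 0.05. In either direction 22.9% of all genes were called. Among the 30, OAS2, MX2, CMPK2 and IFI44 passed the filter on low counts only in comparisons with LA, their highest group. For them the filter itself favoured a lower value in sgScr. DESeq2 called 32 lower and 0 higher, with 1897 and 1775 of all 20068 genes. The 30 comprised 3 of 4 transcription factors, 2 of 2 sensors, 3 of 4 IFIT genes, 4 of 4 OAS genes, 6 of 8 other effectors, 2 of 4 ISG15 pathway genes, 3 of 3 PARP and DTX3L genes, 3 of 3 guanylate-binding proteins, 2 of 3 IFI genes, and SP110 and LGALS3BP. The median log2 fold change was -1.38, against -0.02 for all genes. For 33 members sgScr lay below LA without overlap (background 28.6%), and for 1 it lay above (background 27.9%).

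OAS2 fell most among members with a mean of at least 20 counts, with a log2 fold change of -3.69 (SE 0.67, edgeR adjusted p = 0.016). It had 6, 8 and 2 counts in sgScr against 26 and 96 in LA, so it reached the filter and that mean through LA. GBP1 fell by 3.16 (SE 0.35, edgeR adjusted p = 0.0041), TRIM22 by 2.72 (SE 0.50, 0.016), MX1 by 2.54 (SE 0.48, 0.018) and SAMD9L by 2.53 (SE 0.30, 0.0052) on the log2 scale. LGALS3BP, with the most reads, fell by 1.50 (SE 0.09, edgeR adjusted p = 0.00098). OAS3 fell by 0.48 (SE 0.11, edgeR adjusted p = 0.029). Among the transcription factors IRF7 fell by 1.40, IRF9 by 1.30 and IRF1 by 0.95, with edgeR adjusted p of 0.0098, 0.0091 and 0.0042, while STAT2 had a log2 fold change of -0.12 (edgeR adjusted p = 0.56). The members that did not pass the test were STAT2, IFIT5, IFITM2, IFITM3, ISG20, TRIM21, HERC5, USP18, IFI35 and PLSCR1, with log2 fold changes from -0.44 to 0.44.

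IRF1, DDX58, SAMD9, SAMD9L, DTX3L, GBP1, GBP3 and LGALS3BP were called lower in all 13 alternatives, with and without each library. The count of members called lower was 11 without sgScr replicate 1, 9 without replicate 2 and 9 without replicate 3, and was 39 without LA replicate 1 and 30 without LA replicate 2, where 1 and 4 members respectively were called higher. Over all genes, 218 to 310 were called lower without an sgScr library, 4988 without LA replicate 1 and 3860 without LA replicate 2, beside 1793 with all 5 libraries. The summed fibroblast markers were also lower in sgScr (6.79 to 7.92 CPM) than in LA (15.3 to 17.1 CPM), and their part in the result was not tested. The scramble guide and anything else that differs between these sets of libraries cannot be told apart.

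LA sgFOS against LA sgScr asks what FOS editing changed in the fusion cells. Many ISGs were higher after FOS editing. Of the 37 members tested, 18 were higher (background 12.2% of 14196 genes tested) and 2 were lower (background 10.5%) at an adjusted p under 0.05 in edgeR, together 20 against a background of 22.7%. The 18 were IRF1, DDX58, IFIT2, OASL, MX1, SAMD9, SAMD9L, TRIM22, ISG15, PARP9, PARP14, DTX3L, GBP1, GBP2, GBP3, IFI35, SP110 and LGALS3BP. They made up 3 of 3 guanylate-binding proteins, 3 of 3 PARP and DTX3L genes and 4 of 6 other effectors, but 1 of 4 IFIT genes, 1 of 3 OAS genes and 1 of 4 transcription factors. The lower members were again IFITM2 and ISG20, a count too small to compare with the share of all genes. The median log2 fold change was 0.33, against -0.0015 for all genes, and 31 of 37 were positive, against 49.8% of all genes. sgFOS lay above sgScr without overlap for 27 members (background 24.7%) and below for 3 (background 23.8%).

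TRIM22 rose by 1.41 on the log2 scale (SE 0.29, edgeR adjusted p = 0.00034), SAMD9L by 1.36 (SE 0.26, 0.00012), GBP3 by 1.23 (SE 0.20, 7.7e-06), MX1 by 1.16 (SE 0.26, 0.00087) and SAMD9 by 1.04 (SE 0.15, 1.9e-06). LGALS3BP rose by 0.59 (SE 0.04, edgeR adjusted p = 1.2e-14), the smallest adjusted p among the members. OASL and GBP1 rose by 2.49 (SE 0.51) and 1.85 (SE 0.39), but on a mean of under 20 counts. IFITM2 fell by 0.29 (SE 0.07, edgeR adjusted p = 0.0026) and ISG20 by 0.40 (SE 0.13, 0.019). IRF1 rose by 0.26 (SE 0.08, edgeR adjusted p = 0.022), and IRF9, IRF7 and STAT2 had log2 fold changes of 0.25, 0.21 and -0.01 (edgeR adjusted p = 0.14, 0.51 and 0.95). OAS1 and OAS3 had log2 fold changes of -0.05 (SE 0.08) and 0.07 (SE 0.04), with edgeR adjusted p of 0.72 and 0.19. Of members with a promoter window and a test, 8 of 20 with the ISRE core as spelled here and 6 of 10 without that spelling were higher. Windows without that spelling, such as that of DDX58, can hold GAAA repeats at another spacing, so these counts do not separate members with and without an ISRE. Of the AP-1 motif holders SAMD9L and GBP3 rose, ISG20 fell and IFIT5 had a log2 fold change of 0.08 (edgeR adjusted p = 0.44).

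These calls use the narrow spread of the sgScr and sgFOS libraries. In an edgeR fit that shared its spread with the A549 and LA libraries, 0 members and 0 of all 14849 genes were called. In that fit 11 members had an unadjusted p under 0.05. DESeq2 on the 5 libraries called 10 members higher and 1 lower, with 992 and 832 of all 19742 genes. DDX58, MX1, SAMD9, SAMD9L, TRIM22, DTX3L, GBP3 and LGALS3BP were called in 12 of 13 alternatives, the exception being the fit with all 9 libraries. Leaving out sgFOS replicate 1 gave a members' median of 0.32 on the log2 scale, against -0.0043 for all genes. Leaving out sgFOS replicate 2 gave 0.40, against -0.0048 for all genes. Without sgScr replicate 2, 13 members were higher and 1 lower, with 1358 and 1046 of all 13937 genes. The summed leukocyte and fibroblast markers were also higher in sgFOS (53.7 to 56.6 and 9.41 to 10.6 CPM) than in sgScr (38.0 to 39.5 and 6.79 to 7.92 CPM), with PTPRC and CD3E at 0 counts in all of them.

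LA sgScr against A549 sets the scramble-guide fusion cells beside the parent line. It shares the A549 libraries with LA against A549 and the sgScr libraries with both comparisons that use the scramble guide, so the comparisons are not independent of each other. Of the 39 members tested, 2 were higher (background 19.8% of 14482 genes tested) and 17 were lower (background 21.7%) in edgeR, together 19 against a background of 41.5%. OAS3 and PARP14 were higher, with log2 fold changes of 1.48 (SE 0.35, edgeR adjusted p = 0.021) and 1.10 (SE 0.21, 0.012). ISG15 fell by 3.09 (SE 0.53, edgeR adjusted p = 0.0095), GBP1 by 2.14 (SE 0.39, 0.011), MX1 by 1.87 (SE 0.30, 0.0086), IFI6 by 1.86 (SE 0.26, 0.0068) and IRF7 by 1.59 (SE 0.30, 0.012) on the log2 scale. IRF9 fell by 1.28 and IRF1 by 0.62, with edgeR adjusted p of 0.010 and 0.030, and STAT2 had a log2 fold change of 0.40 (edgeR adjusted p = 0.13). IFIT1, OAS1, OASL, IFITM2, GBP2, GBP4, IFI27, IFI35, SP110 and LGALS3BP were the remaining lower members. GBP4 passed the filter on low counts only in comparisons with A549, its highest group, which favoured a lower value for it. The median was -0.75, against 0.02 for all genes, and the groups did not overlap for 23 members that were below (background 33.1%) and 5 that were above (background 35.9%).

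Several members called higher in LA against A549 were near the A549 level in sgScr: DDX58, IFIT2, IFIT3, SAMD9, SAMD9L and TRIM22 had log2 fold changes of -0.43, -0.25, -0.38, -0.23, -0.33 and 0.03 against A549, with standard errors from 0.28 to 0.71. Leaving out any 1 of the 3 sgScr libraries left 0 members called in sgScr against A549, and at most 117 genes higher and 13 lower over all genes, beside 2872 and 3137 with all libraries, while the members' median was between -0.75 and -0.63. Leaving out A549 replicate 1 gave a members' median of -0.82 on the log2 scale, against 0.016 for all genes. Leaving out A549 replicate 2 gave -0.64, against 0.058 for all genes. With a spread estimated for each group in limma-voom 2 were higher and 8 lower (1817 and 1956 of all genes). A replicate block gave 2 and 11 (1927 and 1553), and a length and GC correction 0 and 17 (2349 and 3017). OAS3 and PARP14 were thus no longer called higher after that correction. Over all genes, the log2 fold change in sgScr against A549 rose with transcript length (Spearman's rho 0.59 across 14220 genes). These genes share the same libraries and are not independent.

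**Figure D3:**
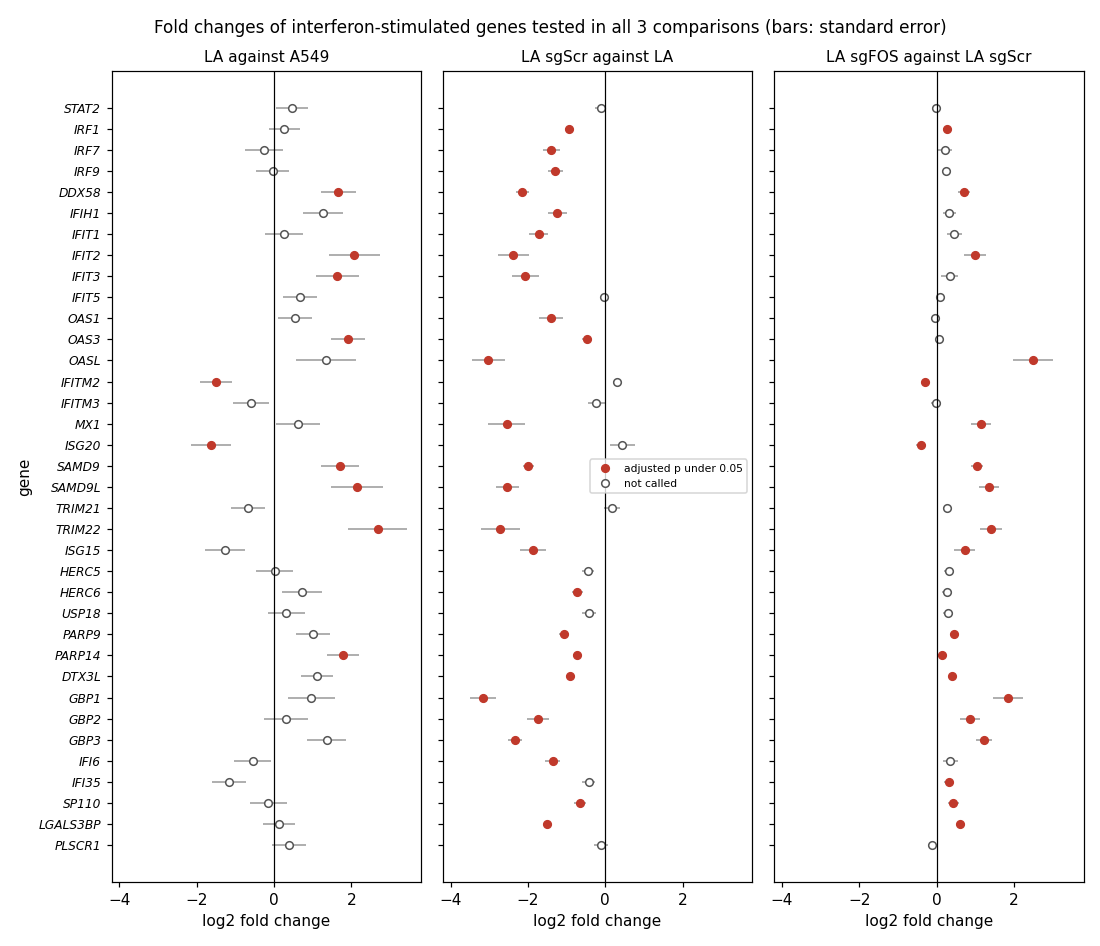
Log2 fold change (x axis) with its standard error (bar) of 36 interferon-stimulated genes (y axis, by role) in LA against A549, LA sgScr against LA and LA sgFOS against LA sgScr; filled red points passed an adjusted p of 0.05 in edgeR. Points lie mostly left of 0 in the middle panel, where the median was -1.38, and the panels share libraries, so a shift in 1 group appears in both panels that use it.

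The interferon pathway upstream of these genes was described with 40 further genes. Among 12 interferon ligands only IFNE passed the filter on low counts, with 13 to 88 counts per library. IFNB1 had at most 1 count in any library, and IFNG and IFNK had 0 counts in all 9, which allows up to 3 counts in each. In LA against A549, 3 of 28 pathway genes tested were higher and 2 lower (background 9.57% and 9.94% of all genes). In sgScr against LA, 5 of 28 were higher and 5 lower (10.6% and 12.3%). In sgFOS against sgScr, 6 of 27 were higher and 0 lower (12.2% and 10.5%), and in sgScr against A549 10 of 27 were higher and 2 lower (19.8% and 21.7%).

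JAK2, a kinase of the interferon gamma receptor, was at 3.90 and 9.49 CPM in A549, 26.2 and 28.8 in LA, 17.5, 16.5 and 16.8 in sgScr, and 14.8 and 14.5 in sgFOS. It was higher in LA than in A549 by 2.0 on the log2 scale (SE 0.49, edgeR adjusted p = 0.0066) and fell by 0.74 in sgScr against LA (SE 0.11, 0.0088). IFI16, a DNA sensor, was at 2.83 and 6.37 CPM in A549, 9.49 and 9.88 in LA, 1.44, 1.13 and 1.28 in sgScr, and 2.72 and 2.87 in sgFOS. It fell by 2.95 on the log2 scale in sgScr against LA (SE 0.20, edgeR adjusted p = 0.0014) and rose by 1.13 in sgFOS against sgScr (SE 0.27, 0.0018). The receptor subunit IFNGR1 rose by 0.30 in sgFOS against sgScr (SE 0.05, edgeR adjusted p = 1.7e-05), and the other genes higher there were JAK1, MAVS, IKBKE and TRIM25, with log2 fold changes from 0.14 to 0.25.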

How the data were processed

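Poly(A) RNA of 9 A549-derived libraries was made into stranded libraries and sequenced from both ends by the authors. Their processing notes name hg19, STAR 2.7.10b and DESeq2 1.26.0. The deposited values are raw counts of reads per gene, without normalization. How reads were counted (program, annotation, strand) is not given in the sources used here. Totals ranged from 14507228 to 20456341 counts. Groups and replicate numbers came from the labels.

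Counts of each comparison's libraries were tested in R 4.3.3 with edgeR 4.0.16 (TMM, filterByExpr, quasi-likelihood test, two-sided, Benjamini-Hochberg adjustment over all genes tested), and a gene was called at an adjusted p under 0.05. This step was tested on simulated data. Alternatives used DESeq2 1.42.0 and limma 3.58.1, other scalings, no filter, all 9 libraries in 1 fit, a replicate block, a loess correction for length and GC content (span 0.5), an absolute log2 fold change of over 0.5 with unadjusted p, and each library left out. The limma-voom fit with group variances and the crossed block were added after seeing the data. Lengths came from GENCODE 44 (GRCh37, canonical transcript) and promoters from RefSeq. Where a count is 0, up to 3 counts were taken as possible. Such limits cover counting error only, since the reads carry no molecular identifiers.

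The members, roles and lists were chosen with earlier results of these data known. Full statistics were to be given for up to 5 called members in each direction with the largest log2 fold changes and a mean of at least 20 counts, and for STAT2, IRF1, IRF7 and IRF9 in every comparison. Other members whose values are given were singled out after their values were seen, as were the pathway genes described one by one and the 7 promoters shown. Some genes of the pathway and marker lists are not reported here.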

Additional observations from a re-analysis of the deposited data

How the results depend on the processing

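No called member reversed its direction under any alternative. In LA against A549, 9 members were higher and 2 lower, with 1380 and 1434 of all genes. Sharing the spread over all 9 libraries gave 15 and 5 (3552 and 3247 of all genes). The study's threshold of an unadjusted p with an absolute log2 fold change over 0.5 gave 15 and 5 (2505 and 2472). The length and GC correction gave 4 and 0 (727 and 1003). Scaling by library size alone gave 11 and 0 (1601 and 682) and moved the members' median from 0.54 to 0.81 on the log2 scale. With 1 library left out, the ranges were 0 to 12 higher, 0 to 4 lower and 0.30 to 0.84 for the median. In sgFOS against sgScr, 18 were higher and 2 lower, with 1731 and 1490 of all genes. DESeq2 gave 10 and 1 (992 and 832 of all genes). Sharing the spread over all 9 libraries gave 0 and 0 (0 and 0), and the study's threshold gave 0 lower (288). With 1 sgScr library left out the ranges were 13 to 18 higher and 1 to 2 lower. These ranges leave out the fits without an sgFOS library, which have a lone library in that group and for which only the median is given. With any 1 library left out the median was 0.31 to 0.40. In sgScr against LA, alternatives with all libraries gave 26 to 33 lower and 0 higher, and with 1 library left out 9 to 39 lower and 0 to 4 higher, with a median of -1.55 to -1.04. In sgScr against A549, 2 were higher and 17 lower; the length and GC correction gave 0 higher, limma-voom with group variances gave 8 lower, and with 1 library left out 0 to 7 were higher and 0 to 25 lower. The median of -0.75 became -0.55 with library size alone, -0.54 with the length and GC correction, and -0.82 to -0.63 with 1 library left out. A lone library left in a group was assumed to vary like the other group. The causes of these changes were not tested.

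Replicate numbers did not pair the samples: deviations of same-numbered libraries correlated at -0.28 in LA against A549 and between -0.17 and 0.05 elsewhere. With the replicate block, members called higher and lower were 8 and 0 in LA against A549 (791 and 728 of all genes). They were 16 and 2 in sgFOS against sgScr (1670 and 1480), 0 and 26 in sgScr against LA (511 and 719), and 2 and 11 in sgScr against A549 (1927 and 1553). Crossed pairing in LA against A549, chosen after seeing the data, gave 12 and 3 (1977 and 1901 of all genes).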
